A study of Homo sapiens with 12 samples.

Results

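The hairpin 1 comparison asked what changed in the prostate carcinoma cell line 22Rv1 when a short hairpin RNA against HNF4G was switched on. It used 4 of the 12 Illumina bead arrays of the study: 2 of the hairpin 1 subline with doxycycline, the drug that turns the hairpin on, and 2 of the same subline without it. All genes were described whose probe had a detection p-value under 0.01 on at least 2 of the 12 arrays, which were 11164 genes, 10297 of them detected on 2 or more of the hairpin 1 arrays. The other 8 arrays came from a scrambled-hairpin control subline and from a hairpin 2 subline with another hairpin against HNF4G, each with 2 arrays with doxycycline and 2 without. All 3 sublines were 22Rv1 cells that carried an inducible hairpin and grew in RPMI medium with 10% serum. The cells were harvested after 3 days of doxycycline or, in the groups called untreated here, of vehicle. The dose, and whether a subline was 1 clone or a pool, are not given in the sources used here. The labels do not say whether replicates were separate cultures, so the p-values speak for the spread of these arrays alone, and that spread may be technical.

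HNF4G is a nuclear receptor, a transcription factor closely related to HNF4A. Both bind DNA as dimers at short repeated elements and are known as regulators of the genes that liver, intestine, kidney and pancreas use for absorption, secretion and metabolism. Prostate epithelium normally makes little of these products, and 22Rv1 is known as a prostate cancer line that expresses HNF4G together with genes of the gut and liver. A hairpin RNA is cut by the cell into a small interfering RNA that lowers the messenger RNA it matches.

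HNF4G itself is the check of the labels. In the hairpin 1 subline its normalized log2 intensity was 6.30 and 6.18 without doxycycline and 4.73 and 4.83 with it, and neither doxycycline array was above background. It fell by 1.46 ± 0.18 (log2 difference ± standard error, 2 arrays per group; limma, adjusted p = 0.000801), which is at least 2.08-fold lower. The call was kept in each of the 12 fits that left out 1 array. In bulk RNA such as this, fewer cells of a type and less RNA per cell cannot be told apart. The change in the scrambled subline was -0.24 ± 0.18, and the difference between these responses (-1.23 ± 0.25, adjusted p = 0.0664) did not pass. With hairpin 2 the change was -1.92, and the difference from it (0.45 ± 0.25, adjusted p = 0.541) did not pass either. The 7 control genes, which included ACTB, GAPDH, B2M and TBP, had changes from -0.23 to 0.30 with hairpin 1 and none passed. The 4 arrays had similar brightness, with median intensities of 97.2 to 105 and 16392 to 16917 probes above background. With 2 arrays in a group, their number sets how precise each value is.

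With hairpin 1, 118 of the 11164 genes passed the threshold of an adjusted p under 0.05 (1.06%). Of these 93 fell (0.833%) and 25 rose (0.224%), and 112 were protein-coding genes. The falls were also the larger changes. Of 58 genes that differed by more than 1 log2 unit 57 passed, and the 25 rises ended at 1.20 while the falls reached -3.05. All 93 genes that fell were above background on both arrays without doxycycline, and 23 of them were below it on both arrays with doxycycline. For 4 of the falls the 2 untreated hairpin 1 arrays were the only ones above background, so they entered through the group where they were high. All 25 genes that rose were above background on both arrays with doxycycline, and 4 were below it on both without. The median change of all genes was 0.01. The genes nearest to the threshold were ITGA5, ISOC1 and TMEM43 on the inside (adjusted p = 0.0484, 0.0487 and 0.0487) and RUNDC3A, VHL and COPS4 on the outside (0.0504, 0.0508 and 0.0509).

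**Figure D1:**
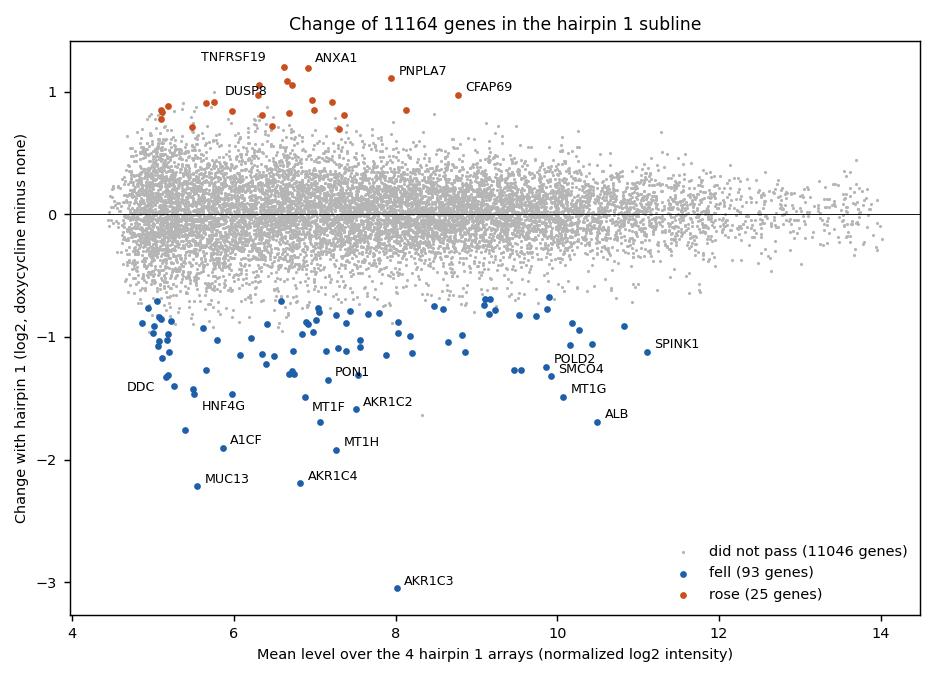
Change with hairpin 1 (vertical axis, log2, doxycycline minus none) of 11164 genes against their mean normalized log2 intensity over the 4 hairpin 1 arrays (horizontal axis). Blue points are the 93 genes that fell, orange points the 25 that rose and grey points the genes that did not pass; the falls reach -3.05 and the rises 1.20.

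The count rests on the number of arrays. Without 1 of the 4 hairpin 1 arrays it was 62 or 54 (an untreated array left out) and 36 or 49 (a doxycycline array left out). Of the 93 falls 28 kept their call in all 4 of these fits, and these 28 were also kept in every other setting that was tried. Of the 25 rises none was kept in all 4, and 15 were kept in none. When the arrays were scaled to a common median over all probes, the median change of all genes moved from 0.01 to 0.16, and 50 genes fell and 39 rose. All changes below are read against a median of all genes near 0, as quantile normalization sets it.

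Genes of a list named for the gut and stomach surface and brush border formed 1 group of falls. Not all its members are surface proteins: A1CF binds RNA and SPINK1 is secreted. Of 15 measured genes of this list, 6 fell (40%, against 0.833% of all genes), none rose and 9 did not pass. The list median was -0.63, against 0.01 over all genes. MUC13, a membrane-anchored mucin, had log2 intensities of 6.92 and 6.39 without doxycycline and 4.40 and 4.48 with it. MYO1A, the myosin that ties the actin core of a microvillus to its membrane, went from 6.34 and 6.21 to 4.48 and 4.55. A1CF, the RNA-binding cofactor of apolipoprotein B messenger RNA editing, went from 6.72 and 6.92 to 4.82 and 5.02. In all 3 genes both doxycycline arrays were below background and below both untreated arrays. For 20.5% of all genes both doxycycline arrays lay below both untreated arrays, and for 23.3% above.

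MUC13 fell by 2.22 ± 0.20 (limma, adjusted p = 4.19e-05), at least 2.77-fold. MYO1A fell by 1.76 ± 0.14 (adjusted p = 4.05e-05), at least 2.12-fold, and A1CF by 1.90 ± 0.21 (adjusted p = 0.00048), at least 3.10-fold. A second A1CF probe fell as well (-1.40, adjusted p = 0.0155 over all kept probes). BAIAP2L2, which shapes the membrane at the tips of microvilli, stayed above background and fell from 7.02 and 7.13 to 5.82 and 6.03 (-1.15 ± 0.15, adjusted p = 0.0011). SPINK1, a secreted trypsin inhibitor, was the brightest of the group and fell from 11.75 and 11.59 to 10.57 and 10.53 (-1.12 ± 0.19, adjusted p = 0.00924). CDH17, the cadherin of liver and intestine, was near background without doxycycline (5.71 and 5.82) and below it with the drug (4.62 and 4.67), at least 1.49-fold lower (adjusted p = 0.0352). Leaving out 1 hairpin 1 array kept the calls of MUC13, MYO1A, A1CF and BAIAP2L2. It left that of SPINK1 in 1 of 4 fits (adjusted p from 0.0406 to 0.0855) and that of CDH17 in 0 of 4 (0.137 to 0.232). The secreted disulfide isomerase AGR2 and the actin bundler VIL1, which belong to the same list, changed by -0.74 and -0.63 and did not pass, and TMPRSS2 and TSPAN8 changed by 0.11 and 0.12.

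The responses of these genes with hairpin 2 were -2.43 for MUC13, -1.83 for MYO1A, -1.73 for A1CF, -1.62 for BAIAP2L2, -0.47 for SPINK1 and -1.06 for CDH17, and none differed from hairpin 1 by the test of the difference. In the scrambled subline they were -0.37, -0.44, -0.37, -0.30, -0.11 and -0.74 in the same order. The hairpin 1 response was below the scrambled one for MUC13 and MYO1A (adjusted p = 0.0136 for both) and for A1CF (adjusted p = 0.0474), and the difference did not pass for the other 3. Without 1 array these differences passed in 7, 7 and 2 of 12 fits.

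The promoters of MUC13 and MYO1A are shown because both hold the letters CAAAGTCCA, a form of the element that HNF4 proteins bind. They are RefSeq sequences of GRCh38.p14, from 250 bases before to 50 bases after the start of the transcript, on the strand of the gene: chr3:124934702-124935001 (minus strand) for MUC13 and chr12:57050080-57050379 (minus strand) for MYO1A, for which this is the listed start of 2 that holds the element. Capitals mark the element, which is on the opposite strand in both.
MUC13: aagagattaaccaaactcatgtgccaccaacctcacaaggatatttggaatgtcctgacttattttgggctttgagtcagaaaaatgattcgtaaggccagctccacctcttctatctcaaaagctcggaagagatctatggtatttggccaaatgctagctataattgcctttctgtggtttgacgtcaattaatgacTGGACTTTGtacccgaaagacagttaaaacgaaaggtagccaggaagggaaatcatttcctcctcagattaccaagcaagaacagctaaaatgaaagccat
MYO1A: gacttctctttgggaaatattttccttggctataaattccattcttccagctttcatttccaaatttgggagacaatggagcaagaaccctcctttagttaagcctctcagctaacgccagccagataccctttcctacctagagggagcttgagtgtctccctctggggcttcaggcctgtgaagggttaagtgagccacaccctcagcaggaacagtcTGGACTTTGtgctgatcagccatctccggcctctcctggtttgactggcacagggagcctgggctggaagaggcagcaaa

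The element lay 51 to 43 bases before the start in MUC13 and 30 to 22 bases before it in MYO1A. Searched on both strands, it was in 0.304% of the 13139 promoters of this length listed for the tested genes, some of which had several. Of the called genes 93 had a listed promoter, 72 of those that fell and 21 of those that rose, and MUC13 and MYO1A were the 2 of the 72 that held it. Counted by gene, 39 of the 9047 tested genes with a promoter held it in at least 1 (0.431%). These letters were chosen with the values known, and a match describes the sequence only.

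A few genes of liver secretion and of amino acid breakdown were among the falls. ALB, the albumin of blood plasma, was 11.33 and 11.35 without doxycycline and 9.55 and 9.76 with it. PON1, an esterase carried on high-density lipoprotein, was 7.91 and 7.77 without and 6.63 and 6.34 with it. The arrays of the 2 conditions did not overlap for either gene, which was so in this direction for 20.5% of all genes. ALB fell by 1.69 ± 0.14 (3.23-fold, adjusted p = 4.05e-05) and PON1 by 1.35 ± 0.17 (2.55-fold, adjusted p = 0.0011), and second probes of both fell as well (-1.62 and -1.20). These were the 2 of 10 measured genes of liver secretion that passed (20% fell, against 0.833% of all genes). The others, which included APOE, the complement genes C5 and CFI and the haemopexin gene HPX, changed by -0.50 to 0.23, and the list median was -0.32.

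DDC, the decarboxylase that makes dopamine and serotonin, went from 5.80 and 5.86 to 4.58 and 4.42, below background on both doxycycline arrays and at least 1.56-fold lower (-1.33 ± 0.20, adjusted p = 0.0049). HGD, an enzyme of tyrosine breakdown, went from 5.80 and 5.61 to 4.55 and 4.51, also below background and at least 1.43-fold lower (-1.17 ± 0.21, adjusted p = 0.0139). They were the 2 of 18 genes of gluconeogenesis and amino acid breakdown that passed (11.1% fell, against 0.833% of all genes). This list's median of -0.06 was 0.10 under median scaling. DDC was also the 1 of 14 genes of the neuroendocrine list that passed (7.14%). Without doxycycline replicate 2 the DDC call was lost (adjusted p = 0.0605). The HGD call was lost without any 1 of the 4 arrays (0.0519 to 0.113), and a second, dimmer HGD probe changed by -0.40 and did not pass. The responses of ALB, PON1, DDC and HGD were -1.34, -1.41, -1.36 and -1.22 with hairpin 2 and -0.58, 0.19, -0.51 and -0.79 in the scrambled subline. The hairpin 1 response was below the scrambled one for ALB (adjusted p = 0.0383) and PON1 (0.0151), and the difference did not pass for DDC and HGD. Without 1 array the ALB difference passed in 0 of 12 fits and that of PON1 in 5.

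The promoter of DDC is shown because it holds the element CAAAGGTCA. These letters are the last part of a direct repeat of AGGTCA, which nuclear receptors bind, with a single base between the copies. The whole repeat was not searched for. The promoter shown is chr7:50565356-50565655 (minus strand, GRCh38.p14, RefSeq), the start of the 2 listed for DDC that holds the element. Capitals mark the element.
DDC: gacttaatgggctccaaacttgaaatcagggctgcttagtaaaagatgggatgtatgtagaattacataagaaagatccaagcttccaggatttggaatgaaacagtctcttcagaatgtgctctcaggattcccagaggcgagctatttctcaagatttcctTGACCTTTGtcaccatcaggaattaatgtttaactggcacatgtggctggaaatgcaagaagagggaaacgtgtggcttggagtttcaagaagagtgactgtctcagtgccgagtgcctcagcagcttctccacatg

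The DDC element lay 87 to 79 bases before the start of DDC, on the opposite strand. It was in 0.266% of the 13139 promoters of the tested genes. Counted by gene, 0.365% of the 9047 tested genes with a promoter held it in at least 1. Among the 72 genes that fell these were DDC and GAS2.

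Enzymes that act on steroid hormones held the largest fall of the comparison. AKR1C3, which makes testosterone from androstenedione, was 9.64 and 9.43 without doxycycline and 6.12 and 6.85 with it. AKR1C4, a liver enzyme of bile acid and steroid reduction, went from 7.96 and 7.89 to 5.65 and 5.81. AKR1C2, which inactivates dihydrotestosterone, went from 8.41 and 8.20 to 6.77 and 6.66. All stayed above background on every array, with the conditions far apart compared with the gap between replicates. The change was -3.05 ± 0.23 for AKR1C3 (8.29-fold lower, adjusted p = 3.29e-05), -2.19 ± 0.19 for AKR1C4 (4.58-fold lower, adjusted p = 4.05e-05) and -1.59 ± 0.19 for AKR1C2 (3.01-fold lower, adjusted p = 0.000666). The AKR1C genes are near-identical in sequence, so the signal of a probe may come in part from a relative.

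The glucuronosyltransferases UGT2B17 and UGT2B15, which attach glucuronic acid to androgens, fell below background. UGT2B17 was 6.50 and 5.91 without doxycycline and 5.08 and 4.48 with it (-1.42 ± 0.24, at least 2.03-fold, adjusted p = 0.00841). UGT2B15 went from 5.57 and 5.79 to 4.75 and 4.64 (-0.98 ± 0.18, at least 1.41-fold, adjusted p = 0.0143). These close paralogs were kept in 2 and 1 of the 4 fits without 1 hairpin 1 array (adjusted p up to 0.0985 and 0.116). A second UGT2B17 probe changed by -0.67 and did not pass. The list of glucuronidation and steroid enzymes had 23 measured genes, of which these 5 fell (21.7%, against 0.833% of all genes) and none rose. The other 18, among them the reductases SRD5A1 and SRD5A2 and 8 genes of the HSD17B family, changed by -0.59 to 0.61. The list median was 0.05, and -0.04 under scaling to the median of the tested genes. Among 30 drug and detoxification enzymes 1 fell (3.33%). It was ALDH1A1, which makes retinoic acid (6.75 and 7.08 without doxycycline, 5.78 on both arrays with it; -1.14 ± 0.15, adjusted p = 0.00175).

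The responses of AKR1C3, AKR1C4, AKR1C2, UGT2B17 and UGT2B15 were -2.37, -1.70, -1.86, -1.21 and -1.06 with hairpin 2, and no difference from hairpin 1 passed. In the scrambled subline they were -0.15, -0.39, -1.17, -0.08 and 0.18. The untreated levels were higher there, with means of 10.39, 9.66, 10.62, 8.20 and 7.34. In the hairpin 1 subline the untreated means were 9.54, 7.92, 8.30, 6.21 and 5.68 in the same order. The hairpin 1 response was below the scrambled one for AKR1C3 (adjusted p = 0.00461) in all 12 fits without 1 array and for AKR1C4 (adjusted p = 0.0136) in 8 of them. It did not pass for AKR1C2 (adjusted p = 0.621), UGT2B17 (0.134), UGT2B15 (0.0711) and ALDH1A1 (0.0711).

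Some androgen-regulated genes fell. Of 14 genes known to be repressed by androgen 4 fell (UGT2B17, UGT2B15, DDC and HES6). This was 28.6%, against 0.833% of all genes. None rose, and the list median was -0.29. HES6, a regulator of the NOTCH pathway, went from 9.35 and 9.57 to 8.78 and 8.66 (-0.74 ± 0.15, adjusted p = 0.0274), and its call was lost without any 1 of the 4 arrays (0.0638 to 0.164). The untreated HES6 mean was higher in the hairpin 1 subline (9.46) than in the scrambled (8.74) and hairpin 2 (8.98) sublines. Of 27 androgen-activated genes 2 fell (7.41%, against 0.833% of all genes). They were TARP, a transcript within the T-cell receptor gamma locus that prostate cells make (10.07 and 10.32 to 8.84 and 9.003; -1.27 ± 0.17, adjusted p = 0.00185), and the elongation factor ELL2 (9.48 and 9.36 to 8.40 and 8.20; -1.12 ± 0.16, adjusted p = 0.00226). Other members of that list were FKBP5 (-0.10), SLC45A3 (-0.09), KLK2 (-0.03) and ACP3 (0.73), and none of them passed. The list median was -0.05, and 0.10 under median scaling. The responses of HES6, TARP and ELL2 were -0.46, -0.28 and -0.31 with hairpin 2 and -0.17, 0.01 and -0.08 in the scrambled subline. The difference from the scrambled subline passed for TARP (adjusted p = 0.0451, 2 of 12 fits without 1 array) and not for HES6 or ELL2.

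Of 6 measured metallothioneins, small proteins that hold zinc and copper, 5 fell. MT1H was 8.12 and 8.33 without doxycycline and 6.196 and 6.42 with it. MT1G went from 10.75 and 10.89 to 9.47 and 9.19, and MT1F from 7.52 and 7.72 to 6.25 and 6.02. The doxycycline arrays lay below the untreated arrays in each, as for 20.5% of all genes, and all were above background. MT1H fell by 1.92 ± 0.17 (3.78-fold, adjusted p = 4.19e-05), MT1G by 1.49 ± 0.17 (2.81-fold, adjusted p = 0.000535) and MT1F by 1.49 ± 0.17 (2.81-fold, adjusted p = 0.000611).

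MT1X went from 10.80 and 10.58 to 9.56 and 9.68 (-1.07 ± 0.18, adjusted p = 0.0112) and MT2A from 11.23 and 11.32 to 10.52 and 10.20 (-0.91 ± 0.19, adjusted p = 0.0376). Their calls were kept in 1 and 0 of the 4 fits without 1 hairpin 1 array (adjusted p from 0.0386 to 0.116 and from 0.0968 to 0.229). MT1E, the remaining metallothionein measured, changed by -0.63 ± 0.16 and did not pass (adjusted p = 0.0948). Of the 22 metallothionein and metal transport genes measured, these 5 fell (22.7%, against 0.833% of all genes) and the other 17 did not pass. The list median was -0.19. Those that did not pass included the metal sensor MTF1 (-0.09), the zinc exporter SLC30A1 (-0.22) and the zinc importer SLC39A6 (0.55). Metallothionein sequences are nearly alike, so cross-hybridization between their probes is possible and was not tested.

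The responses of MT1H, MT1G, MT1F, MT1X and MT2A were -0.80, -0.75, -0.78, -0.49 and -0.82 with hairpin 2, smaller in size for all 5 than with hairpin 1, but no difference between the hairpins passed (adjusted p = 0.0848 for MT1H and 0.238 to 0.945 for the others). In the scrambled subline they were 0.05, 0.11, 0.33, -0.14 and 0.25. The hairpin 1 response was below the scrambled one for MT1H (adjusted p = 0.00553, 12 of 12 fits without 1 array), MT1F (0.0111, 11 of 12) and MT1G (0.0136, 10 of 12), and not for MT1X (0.201) or MT2A (0.113).

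Promoters of 3 metallothioneins are shown because they hold many copies of the metal response element, the site of the zinc-sensing factor MTF1. MT1G and MT1F had no promoter listed in the sources used here, so theirs could not be searched. The letters searched were TGCGCNC and TGCACNC on both strands. Both are marked in capitals, and none of the copies overlap. The sequences (RefSeq, GRCh38.p14, plus strand) are chr16:56669564-56669863 for MT1H, chr16:56682220-56682519 for MT1X and chr16:56608334-56608633 for MT2A.
MT1H: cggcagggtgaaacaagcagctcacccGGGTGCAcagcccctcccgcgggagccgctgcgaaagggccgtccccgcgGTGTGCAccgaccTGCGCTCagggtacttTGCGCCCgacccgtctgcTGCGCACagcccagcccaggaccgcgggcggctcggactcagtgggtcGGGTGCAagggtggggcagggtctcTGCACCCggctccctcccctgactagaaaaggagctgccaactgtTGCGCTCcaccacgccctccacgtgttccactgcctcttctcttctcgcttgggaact
MT1X: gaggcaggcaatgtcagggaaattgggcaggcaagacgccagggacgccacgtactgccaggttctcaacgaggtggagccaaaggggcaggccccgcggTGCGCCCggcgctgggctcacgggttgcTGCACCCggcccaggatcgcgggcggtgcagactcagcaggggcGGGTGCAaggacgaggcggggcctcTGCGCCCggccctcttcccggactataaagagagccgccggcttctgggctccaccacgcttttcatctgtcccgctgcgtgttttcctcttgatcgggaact
MT2A: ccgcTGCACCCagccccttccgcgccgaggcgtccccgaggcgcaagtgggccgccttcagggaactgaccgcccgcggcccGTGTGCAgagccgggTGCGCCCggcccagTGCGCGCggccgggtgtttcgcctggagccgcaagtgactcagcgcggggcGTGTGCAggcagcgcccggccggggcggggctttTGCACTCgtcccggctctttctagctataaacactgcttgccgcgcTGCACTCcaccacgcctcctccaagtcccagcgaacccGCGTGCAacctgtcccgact

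MT1H and MT2A held 8 copies each and MT1X held 4. Of the 13139 promoters of the tested genes 37.1% held at least 1 copy, 0.868% at least 4 and 0.038% at least 8. TGCGCNC was in 28.8% of these promoters. Counted by gene, in at least 1 promoter, it was in 36.8% of the tested genes, 44.4% of the 72 falls and 38.1% of the 21 rises. TGCACNC was in 11.6%, 15.4%, 19.4% and 9.52% in the same order.

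**Figure D2:**
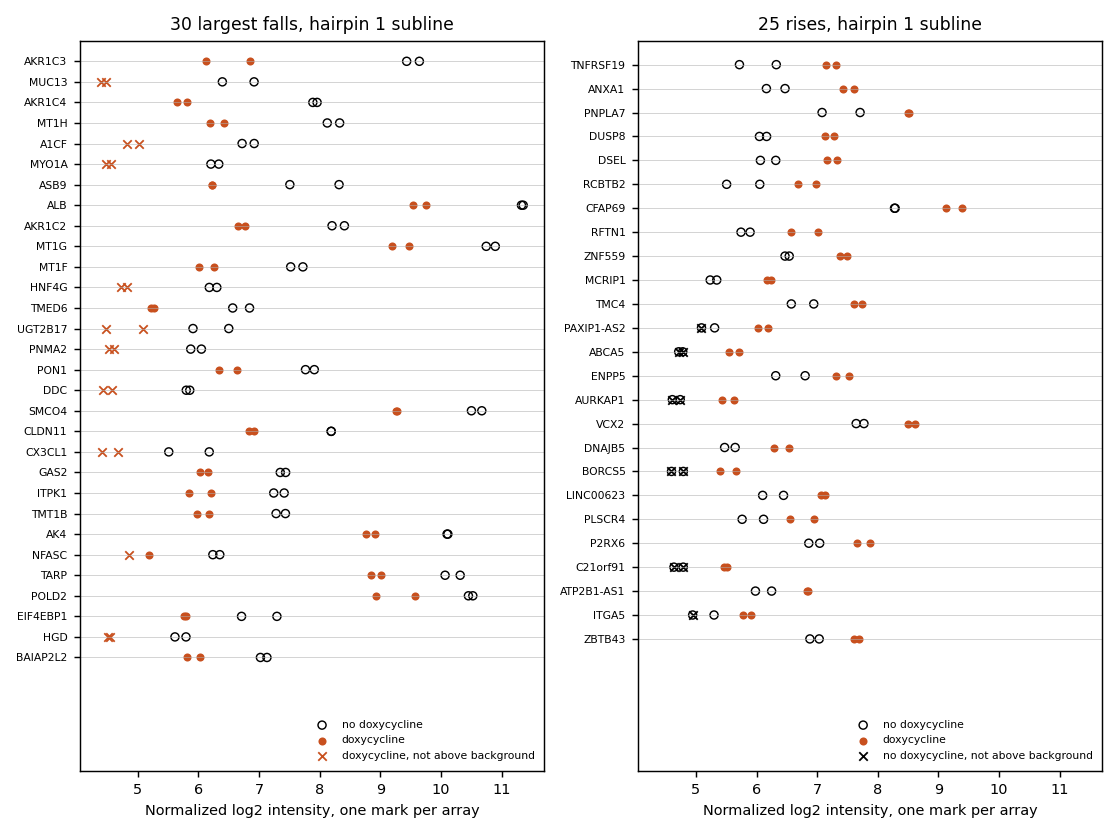
Normalized log2 intensity (horizontal axes) of the 30 largest falls and of the 25 rises on each of the 4 hairpin 1 arrays, 1 mark per array; crosses mark arrays on which the gene was not above background. For every gene the marks with doxycycline and without it do not overlap. Of all tested genes 20.5% were lower without overlap and 23.3% higher. MUC13, MYO1A, A1CF, HNF4G and DDC end below background.

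Genes of protein turnover, energy and growth were also among the 30 largest falls. ASB9, an adaptor of a ubiquitin ligase, went from 8.32 and 7.51 to 6.22 on both doxycycline arrays (-1.69 ± 0.23, adjusted p = 0.00175), and a second probe fell by 1.63. AK4, an adenylate kinase of mitochondria, was 10.10 and 10.11 without doxycycline and 8.91 and 8.76 with it (-1.27 ± 0.15, adjusted p = 0.000586). POLD2, a subunit of the replicative DNA polymerase delta, went from 10.45 and 10.52 to 8.92 and 9.56 (-1.24 ± 0.20, adjusted p = 0.00618). Its doxycycline arrays were the farthest apart of these 3 genes, and the call was lost without doxycycline replicate 1 (adjusted p = 0.0882) or untreated replicate 2 (0.0521). EIF4EBP1, the repressor of translation that mTOR inactivates, went from 7.29 and 6.71 to 5.80 and 5.76 (-1.22 ± 0.19, adjusted p = 0.0056). It was kept in 1 of the 4 fits without 1 hairpin 1 array (adjusted p up to 0.065).

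ITPK1, an inositol phosphate kinase, fell from 7.41 and 7.24 to 5.85 and 6.21 (-1.30 ± 0.16, adjusted p = 0.0011). TMT1B, a thiol methyltransferase, fell from 7.43 and 7.28 to 6.18 and 5.98 (-1.28 ± 0.17, adjusted p = 0.00134). GAS2, a protein that links actin filaments and microtubules, fell from 7.44 and 7.35 to 6.03 and 6.15 (-1.30 ± 0.19, adjusted p = 0.00257). All 3 calls were kept without any 1 hairpin 1 array. With hairpin 2 the responses of ASB9, AK4, POLD2, EIF4EBP1, ITPK1, TMT1B and GAS2 were -2.34, -0.40, -0.22, -0.79, -0.40, -0.87 and -1.15, and no difference from hairpin 1 passed. The hairpin 1 response was below the scrambled one for ASB9, AK4 and TMT1B (adjusted p = 0.0451, 0.0339 and 0.0225; 1, 0 and 4 of 12 fits without 1 array). The difference did not pass for POLD2 (0.0585), EIF4EBP1 (0.088), ITPK1 (0.0624) and GAS2 (0.174).

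Of genes that act at the cell surface or in secretion, CLDN11, a tight junction claudin, went from 8.19 on both untreated arrays to 6.83 and 6.92 (-1.31 ± 0.15, adjusted p = 0.000586). SMCO4, a small membrane protein, went from 10.50 and 10.67 to 9.28 and 9.25 (-1.32 ± 0.17, adjusted p = 0.00144). TMED6, a cargo receptor of the p24 family, went from 6.84 and 6.57 to 5.22 and 5.27 (-1.46 ± 0.17, adjusted p = 0.000586). These 3 calls, and that of the paraneoplastic antigen gene PNMA2 (-1.40 ± 0.18, at least 1.71-fold, adjusted p = 0.00147), were kept without any 1 hairpin 1 array. CX3CL1, a membrane-bound chemokine, went from 6.18 and 5.51 to below background at 4.41 and 4.67 (at least 1.58-fold, adjusted p = 0.0145). It was kept in 1 of 4 such fits (adjusted p up to 0.163).

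NFASC, an adhesion protein of the immunoglobulin family, went from 6.35 and 6.24 to 4.86 and 5.19, above background on 1 doxycycline array (-1.27 ± 0.18, adjusted p = 0.00284). The call was lost without doxycycline replicate 1 (adjusted p = 0.0588) and with the mean of its probes, since a second, dimmer probe changed by 0.08. The responses of CLDN11, TMED6, PNMA2, CX3CL1 and NFASC with hairpin 2 were -0.72, -1.11, -0.97, -1.09 and -1.78. The hairpin 1 response was below the scrambled one for CLDN11 (adjusted p = 0.0211), PNMA2 (0.0311) and NFASC (0.0241), each in 5 of 12 fits without 1 array, and not for TMED6 (0.125) or CX3CL1 (0.269). Of 40 genes of integrins, claudins, cadherins and annexins 2 fell (NFASC and CDH17) and 2 rose (ANXA1 and ITGA5), 5% each. Of all genes 0.833% fell and 0.224% rose. CLDN11 was not on the list. Of 46 genes of the amino acid and integrated stress response 2 fell (4.35%). They were the stress cytokine GDF15 (8.67 and 8.68 to 7.59 and 7.77; -0.99 ± 0.16, adjusted p = 0.00674) and the secreted glycoprotein STC2 (7.67 and 7.69 to 6.99 and 6.72; -0.82 ± 0.17, adjusted p = 0.0351). GDF15 was also the 1 of 24 p53 targets that passed (4.17%). GDF15 was kept in 2 and STC2 in 0 of the 4 fits without 1 hairpin 1 array (adjusted p up to 0.0987 and 0.221). The untreated STC2 mean was higher in the hairpin 1 subline (7.68) than in the scrambled (7.16) and hairpin 2 (7.26) sublines. The medians of the stress response and p53 lists were -0.17 and -0.18, and -0.03 and 0.00 under median scaling.

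The 25 rises were of 0.70 to 1.20, and none was kept in all 4 fits without 1 hairpin 1 array. TNFRSF19, a tumour necrosis factor receptor homologue and WNT target, went from 6.33 and 5.72 to 7.31 and 7.14 (1.20 ± 0.21, adjusted p = 0.0133). ANXA1, a calcium-dependent phospholipid-binding protein, went from 6.47 and 6.16 to 7.42 and 7.60 (1.20 ± 0.22, adjusted p = 0.0145). DUSP8, a phosphatase of stress-activated MAP kinases, went from 6.05 and 6.17 to 7.13 and 7.27 (1.09 ± 0.18, adjusted p = 0.00796). In each gene both doxycycline arrays lay above both untreated ones, as for 23.3% of all genes. Each of these 3 calls was kept in 1 of the 4 fits without 1 hairpin 1 array (adjusted p up to 0.144, 0.119 and 0.0771).

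PNPLA7, a lysophospholipase, rose by 1.11 ± 0.21 (adjusted p = 0.0221) and DSEL, which is related to the epimerase of dermatan sulfate, by 1.05 ± 0.19 (adjusted p = 0.0163), as did a second DSEL probe (1.26). RCBTB2 (1.05), the cilium gene CFAP69 (0.97) and RFTN1, a lipid raft protein (0.97), followed. Integrin subunit ITGA5 rose by 0.72 ± 0.16 (adjusted p = 0.0484) from 4.95 and 5.30, the first below background, to 5.91 and 5.77, and it was kept in 0 of 12 fits without 1 array. The lipid transporter ABCA5, the lysosome-positioning gene BORCS5, C21orf91 and AURKAP1 were below background on both untreated arrays. They rose at least 1.37-, 1.27-, 1.24- and 1.27-fold. AURKAP1 is a pseudogene of the kinase AURKA, and its probe may also detect AURKA. BORCS5, C21orf91 and AURKAP1 started low, with untreated hairpin 1 means of 4.70, 4.71 and 4.68. Untreated means were 5.34, 5.74 and 5.26 for scrambled cells and 5.39, 5.62 and 5.19 for hairpin 2. After doxycycline the hairpin 1 means were 5.53, 5.49 and 5.53. Whether these rises reflect the low start was not tested. For ABCA5 the untreated mean (4.75) lay between those of scrambled (4.46) and hairpin 2 cells (5.15). VCX2, a member of a near-identical gene family of the X chromosome, rose by 0.85 ± 0.18 at this probe (adjusted p = 0.0376), and its other 4 probes changed by 0.35 to 0.68 and did not pass. The remaining rises were of ZNF559 (0.93), MCRIP1 (0.92), the channel-like gene TMC4 (0.91), PAXIP1-AS2 (0.91), ENPP5 (0.85), the chaperone DNAJB5 (0.85), LINC00623 (0.83), the scramblase PLSCR4 (0.81), the ATP-gated channel P2RX6 (0.81), ATP2B1-AS1 (0.72) and ZBTB43 (0.70).

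Of 30 genes of MAP kinase feedback and the immediate early response DUSP8 was the 1 that passed (3.33%). Of 21 WNT and NOTCH targets TNFRSF19 was the 1 (4.76%). Both rose, as did 0.224% of all genes. The medians of these lists were -0.12 and -0.07, and 0.03 and 0.11 under median scaling. The Golgi cargo receptor TMED5 was the 1 of 52 genes of Golgi and vesicle transport that passed (9.54 and 9.48 to 8.78 and 8.87; -0.69 ± 0.15, adjusted p = 0.0484), and it was kept in 0 of 12 fits without 1 array. A1CF was the 1 of 40 RNA-binding and splicing factors that passed (median -0.07, and 0.09 under median scaling). The falls were 1.92% of the Golgi list and 2.5% of the RNA-binding list, against 0.833% of all genes.

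**Figure D3:**
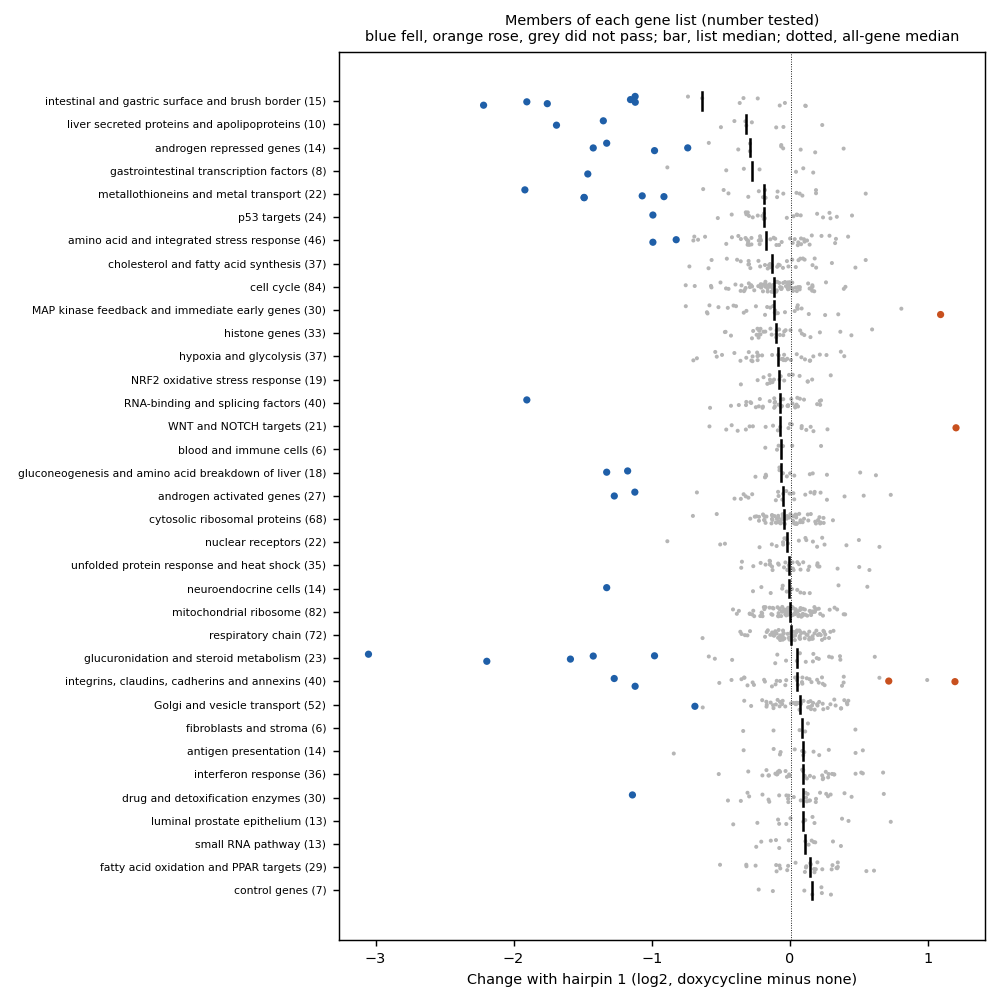
Change with hairpin 1 (horizontal axis, log2) of the tested members of 35 gene lists, with the number tested in parentheses. Blue members fell, orange members rose and grey ones did not pass; the bar is the list's median, lowest for the intestinal list at -0.63, and the dotted line the all-gene median of 0.01.

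In 18 of the 36 lists no tested gene passed, and the basal epithelium list had no gene among those tested. None of 84 cell cycle genes passed, although 66 of them were negative (78.6%, against 48.1% of all genes). Their median was -0.12, and 0.04 under median scaling, where that of all genes was 0.16. The smallest p in that list belonged to FOXM1, a transcription factor of mitosis (-0.69 ± 0.15, adjusted p = 0.0622), followed by E2F8 (-0.75) and PCNA (-0.50). None of 22 nuclear receptor genes other than HNF4G passed (median -0.02, and 0.16 under median scaling). ESRRA, a regulator of mitochondrial genes, was just outside (-0.89, adjusted p = 0.052), and the glucocorticoid receptor NR3C1 changed by 0.65 (adjusted p = 0.0904).

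No gene passed among 82 of the mitochondrial ribosome (median 0.00), 72 of the respiratory chain (0.01), 68 cytosolic ribosomal proteins (-0.04), 35 of the unfolded protein response (-0.01) and 13 of the small RNA pathway (0.11), which processes hairpins. The same was true of 37 genes of cholesterol and fatty acid synthesis (median -0.13), 29 of fatty acid oxidation (0.15), 37 of hypoxia and glycolysis (-0.09), 19 of the NRF2 response (-0.08) and 33 histone genes (-0.10). Under median scaling the medians of the mitochondrial ribosome, cytosolic ribosomal, unfolded protein, cholesterol, hypoxia, NRF2 and histone lists turned positive (0.16, 0.04, 0.15, 0.04, 0.06, 0.08 and 0.02), and that of the respiratory chain was -0.03 when scaled to the tested genes. Among 36 interferon genes (median 0.10) the peptide transporter TAP1 had the smallest p (0.53, adjusted p = 0.142), and among 14 of antigen presentation (0.09) HLA-DMB did (-0.84, adjusted p = 0.104). A gene that did not pass is not shown to be unchanged, since 1378 genes had an unadjusted p under 0.05 (12.3%).

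The cells kept the markers of their label. Of 10 luminal prostate markers 6 were above background on all 4 hairpin 1 arrays (ACP3, FOXA1, HOXB13, KRT8, KRT18 and KRT19). Their list had 13 measured genes, none of which passed, and the summed intensity of the markers tested was 10435 and 8867 without doxycycline and 10933 and 10781 with it. No tested gene was a basal marker. Of 4 markers each of neuroendocrine cells and fibroblasts only SYP and DCN were above background on all 4 arrays, with changes within -0.14 to 0.10 for the markers tested, and of 4 blood markers none was. Neither the 6 genes of the fibroblast list nor the 6 of the blood list passed.

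Genes called with hairpin 1 were followed in the other sublines of the same fit. Of the 93 falls 77 were also negative with hairpin 2 (82.8%, against 49.0% of all genes) and 58 in the scrambled subline (62.4%, against 50.9%). Their median change was -1.03 with hairpin 1, -0.51 with hairpin 2 and -0.08 with the scrambled hairpin. With hairpin 2, 231 genes passed in all (2.07%), and in the scrambled subline 3 did, all lower (0.0269%). Of the 93, 41 also passed as lower with hairpin 2 (44.1% of these 93 and 25.8% of the 159 that fell with hairpin 2; 1.42% of all genes fell there). Of the 25 rises 17 were positive with hairpin 2 and 12 in the scrambled subline, with medians of 0.88, 0.09 and 0.00. Of these 25, 6 also passed as higher with hairpin 2 (24% of 25 and 8.33% of 72; 0.645% of all genes rose there).

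**Figure D4:**
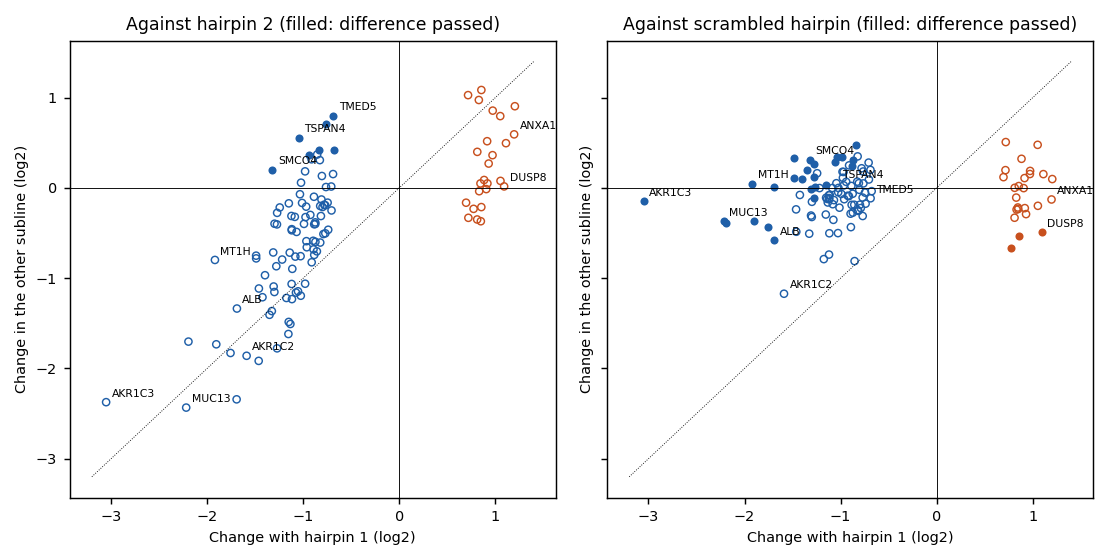
Change of the 118 called genes with hairpin 1 (horizontal axes, log2) against their change with hairpin 2 (left) and in the scrambled subline (right), with blue for falls and orange for rises. Filled points passed the test of the difference, 7 on the left and 28 on the right, and the dotted line marks equal change.

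The response differed from that of the scrambled subline for 35 genes (0.314%), 27 lower (0.242%) and 8 higher (0.0717%), and 28 of the 35 were among the 118. It differed from that of hairpin 2 for 23 genes (0.206%), 8 lower (0.0717%) and 15 higher (0.134%). Of these 23, 7 had passed with hairpin 1 and all 7 had fallen. Under median scaling the 37 genes that differed from scrambled were 6 lower and 31 higher, and the 21 that differed from hairpin 2 were 2 lower and 19 higher. SMCO4 was 10.50 and 10.67 in untreated hairpin 1 cells and 9.28 and 9.25 with doxycycline, whereas all 8 arrays of the other sublines were between 10.24 and 10.79. Its response differed from both others (-1.52 ± 0.24 against hairpin 2, adjusted p = 0.0255, and -1.63 ± 0.24 against scrambled, adjusted p = 0.0136). TSPAN4, a tetraspanin, went from 9.09 and 9.25 to 8.24 and 8.004 with hairpin 1 and from 8.88 and 8.82 to 9.49 and 9.32 with hairpin 2. The difference was -1.60 ± 0.22 (adjusted p = 0.0142), and a second TSPAN4 probe fell with hairpin 1 (-0.96, adjusted p = 0.0342). That probe did not repeat the rise with hairpin 2, where it was 7.61 and 7.37 without doxycycline and 7.29 and 7.80 with it.

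TMED5 fell to 8.78 and 8.87 with hairpin 1 and reached 10.25 and 10.14 with hairpin 2 (difference -1.49 ± 0.22, adjusted p = 0.0143). PPT1, a lysosomal thioesterase, fell from 10.75 and 10.74 to 9.82 and 9.79 and changed by 0.37 with hairpin 2 (difference -1.31 ± 0.21, adjusted p = 0.0255). The other 3 were the zinc finger gene ZNF585A, the transcriptional repressor KCTD1 and POLR2A, the largest subunit of RNA polymerase II, with differences of -1.48, -1.26 and -1.10. A second ZNF585A probe changed by -0.08 with hairpin 1. Without 1 of the 12 arrays the differences passed in 8 fits for TSPAN4, 5 for SMCO4 and TMED5, 4 for PPT1 and ZNF585A, 2 for KCTD1 and 0 for POLR2A. Of the rises, 3 differed from the scrambled subline: DUSP8 (1.58 ± 0.25, adjusted p = 0.0172), C21orf91 (1.44) and AURKAP1 (1.39). DUSP8 was 5.76 and 5.58 in scrambled cells with doxycycline and 6.33 and 5.99 without it, so that part of its difference came from a lower value there. The same held for C21orf91 and AURKAP1, which changed by -0.66 and -0.53 in the scrambled subline. A second C21orf91 probe changed by 0.21 with hairpin 1 and did not pass.

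**Figure D5:**
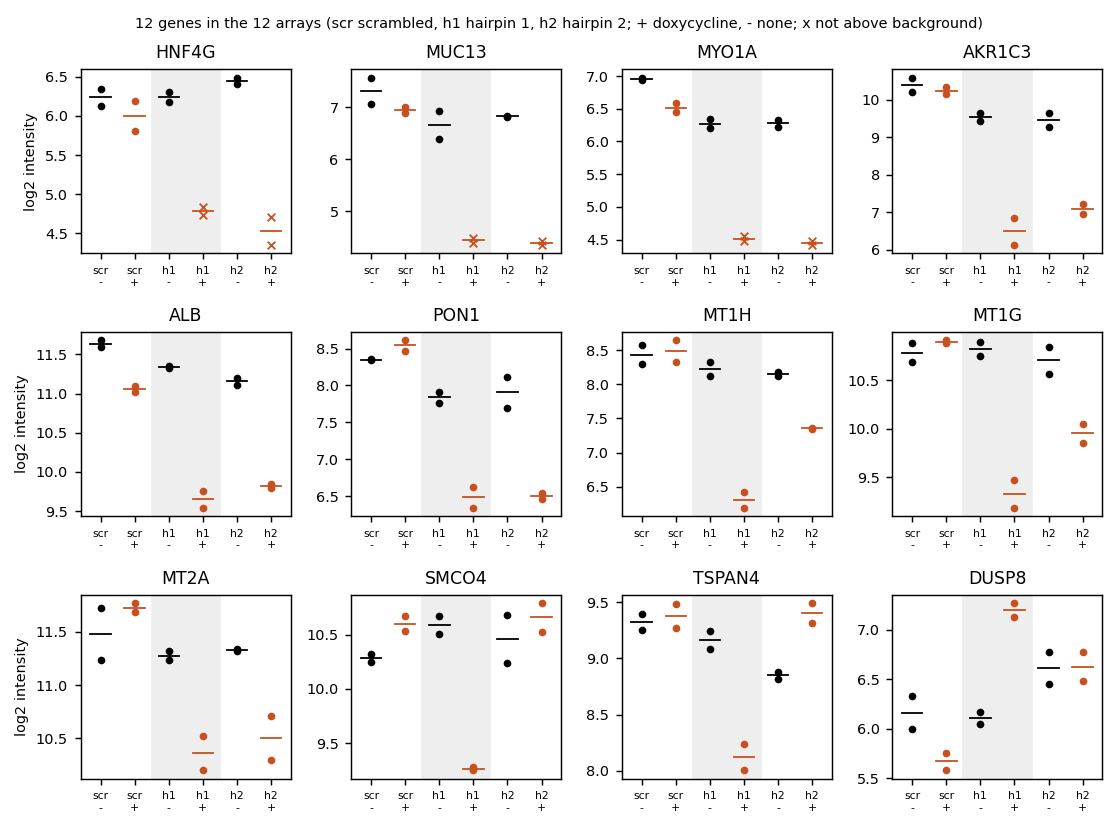
Normalized log2 intensity (vertical axes) of 12 genes on each of the 12 arrays, by subline (scr scrambled, h1 hairpin 1, h2 hairpin 2; hairpin 1 shaded) and doxycycline (+ with, - without); points are arrays, bars are means of 2 and crosses are values not above background. SMCO4 and TSPAN4 are low only in the hairpin 1 arrays with doxycycline, and DUSP8 is highest there.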

How the data were processed

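Total RNA (500 ng) of 3 sublines was labelled and hybridised to 12 Illumina HumanHT-12 v4 arrays, in 6 groups of 2 taken from the labels. The deposited non-normalized table gives intensity per probe and a detection p-value, which the authors' BeadStudio software computed, per the submitters' processing notes. The deposited series matrix holds log2 values that the authors normalized with Partek, per the same notes. Versions are not given in the sources used here. It served as an alternative.

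From 47323 probes, in R 4.3.3 with limma 3.58.1, the background was corrected with normexp using the detection p-values, an offset of 16 was added, and quantile normalization and log2 followed (the steps of neqc). The 19172 probes with a detection p under 0.01 on 2 or more arrays were kept, of which 14767 carried 1 gene symbol in GEO's platform annotation. The probe with the highest mean represented each of 11164 genes. All 6 groups entered 1 linear model, and moderated (empirical Bayes) two-sided p-values were adjusted by Benjamini and Hochberg over all genes, with a threshold of 0.05. For a second probe the adjustment ran over all kept probes. The steps were tested on simulated data.

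A gene not above background on both arrays of a group has only a bound ("at least N-fold"): the brighter mean was set against the dim group, where each array took its detection floor or the probe value if that was higher. Promoters were matched by symbol (93 of 118 called genes).

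The genes, lists and motifs were chosen with earlier results of these data known. The text names HNF4G, the controls, the 30 largest falls, the 25 rises, list members that passed, up to 3 others with the smallest p in lists where none passed, and the genes nearest to the threshold. Other members of lists, the genes that differed from hairpin 2 or scrambled, and the second probes, were picked with their values in view. Alternatives covered scaling, background correction, the probe filter, the arrays in the fit, a replicate block, an intensity trend, the mean of probes and leaving out each array.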

Additional observations from a re-analysis of the deposited data

Results flagged for a closer look

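Genes are given here because the test of the difference between responses passed (limma, adjusted p under 0.05 over 11164 genes). Values are the hairpin 1 response minus the other response, on the log2 scale. For AKR1C3 and MT1H the difference from the scrambled subline was -2.91 and -1.97, for MUC13, MT1F and AKR1C4 it was -1.85, -1.82 and -1.80, and for ASB9, SMCO4 and MT1G it was -1.70, -1.63 and -1.60. PON1, NFASC and A1CF differed by -1.55, -1.54 and -1.54, PNMA2 and TMT1B by -1.49 and -1.40, and PABPC1L2B, ANG and PRELID3B by -1.38, -1.34 and -1.32. MYO1A, KCTD1, CLDN11 and TARP differed by -1.32, -1.31, -1.30 and -1.29, and NME6, FRMD8, AK4, GAL and ALB by -1.19, -1.18, -1.16, -1.13 and -1.11. In the other direction AURKAP1, C21orf91 and DUSP8 differed by 1.39, 1.44 and 1.58.

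The difference from hairpin 2 was -1.60 for TSPAN4, -1.52 for SMCO4, -1.49 for TMED5, -1.48 for ZNF585A, -1.31 for PPT1, -1.26 for KCTD1 and -1.10 for POLR2A. These calls used the same hairpin 1 arrays as the 118, so they are not separate evidence. PABPC1L2B was above background only on the 2 untreated hairpin 1 arrays, and it entered the tested genes through them. Its fall (at least 1.33-fold) and its difference from scrambled therefore follow in part from that selection. The difference passed in 2 of 9 other settings of the processing. PABPC1L2B belongs to a pair of near-identical genes, and ANG shares transcribed sequence with RNASE4.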

How the results depend on the processing

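The number of genes that passed with hairpin 1 (118, of which 93 fell and 25 rose) was 245 with the authors' log2 values (173 lower, 72 higher), 245 without background correction (174 and 71) and 255 with an intensity trend (195 and 60). It was 49 when only the 4 hairpin 1 arrays were fitted (46 and 3), 174 with detection on 2 or more hairpin 1 arrays (128 and 46) and 89 under median scaling (50 and 39). The added scaling to the tested genes, chosen after seeing the data, gave 108 (92 and 16). The count of differences from scrambled (35) was 91, 92 and 98 with the authors' values, no background correction and the trend. That from hairpin 2 (23) was 134, 134 and 108 with these and 11 with the mean of probes. List members that passed (33) numbered 50 with the authors' values and 51 with the trend. Leaving out 1 of the 12 arrays gave 36 to 120 genes with hairpin 1, 2 to 24 against scrambled, 2 to 15 against hairpin 2 and 18 to 31 list members. With the replicate number as a block the counts were 111, 26 and 13, but the numbers do not pair the arrays: their deviations correlated at -0.03 to 0.07 between groups. The HNF4G change was -0.55 with the authors' values or without background correction. The cause of these shifts was not tested. Genes near background have only bounds.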

Other observations

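Further genes that passed with hairpin 1, picked with their values in view, act on retinoids and in signalling. RDH5, a retinol dehydrogenase, went from 8.15 and 8.01 to 7.12 and 6.98 (-1.02 ± 0.20, limma, adjusted p = 0.0221), and DHRS3, a retinal reductase, from 7.44 and 7.15 to 6.02 and 6.33 (-1.12 ± 0.22, adjusted p = 0.0272). Neither call was kept without any 1 of the 4 hairpin 1 arrays (adjusted p up to 0.152 and 0.257). ANG, a secreted ribonuclease, fell from 11.05 and 10.86 to 9.98 and 9.83 (-1.05 ± 0.16, adjusted p = 0.00383), as did a second probe (-1.35). The neuropeptide gene GAL fell from 7.74 and 7.93 to 6.85 and 7.05 (-0.89 ± 0.15, adjusted p = 0.0121). The growth factor gene HGF changed by -1.03 (adjusted p = 0.0284), and its 2 other probes by -1.11 and 0.15, the latter below background on all 4 hairpin 1 arrays.

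COXFA4L2, a mitochondrial protein related to a respiratory chain subunit, was the 1 gene beyond 1 log2 unit that did not pass. It was 9.50 and 8.79 without doxycycline and 7.75 and 7.28 with it (-1.63 ± 0.48, adjusted p = 0.142), and it changed by -1.11 in the scrambled subline and -1.56 with hairpin 2. Of 4405 kept probes without a single gene symbol 11 fell and 2 rose, where 0.833% and 0.224% of the tested genes did. Of the 118 genes 30 had a second kept probe, with 37 such probes in all. Of these 37, 34 changed in the same direction, and 14 passed the threshold in that direction.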
